A study of Mus musculus with 12 samples.

Results

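The genes of glucose uptake, glycolysis, pyruvate oxidation and glycogen turnover were followed in RNA-seq of mouse hearts with and without overexpression of CIP (cardiac ISL1-interacting protein, encoded by Mlip) and with and without transverse aortic constriction (TAC), a surgery that narrows the aorta and overloads the left ventricle. The 38 genes were picked by symbol from 53882 entries of the table. All 38 were listed, and 37 were among the 13392 entries that were tested because they reached 10 normalized counts in 3 or more libraries. The exception was Pygm, listed at 0 in every library. There were 4 groups of 3 mice, and each mouse gave 1 library. CIP-OE-TAC and CIP-OE-Sham mice carried a Rosa-CIP allele with a floxed stop and the aMHC-Mer-Cre-Mer transgene, whose alpha-myosin heavy chain promoter directs Cre to cardiomyocytes, and tamoxifen was given to switch Cre on. In the paper tamoxifen followed TAC surgery, once hypertrophy was established, so CIP was induced for only a part of the time between surgery and collection. Ctrl-TAC and Ctrl-Sham mice were CIP-KI-flox littermates, which have the allele and lack the Cre transgene. An effect of CIP therefore cannot be told apart from an effect of active Cre, and the sources used here do not make clear whether the Ctrl mice also received tamoxifen. If they did not, an effect of tamoxifen cannot be told apart either. All mice were C57BL/6, the labels give an age of 4 months, and the hearts were taken 8 weeks after surgery. Where the values of single hearts are listed, those of a group stand in the same order of animals throughout. The p-values measure the spread between these animals.

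Glucose enters cardiomyocytes through the transporters GLUT1 and GLUT4, hexokinase traps it as glucose 6-phosphate, and glycolysis splits it into pyruvate. Pyruvate is either reduced to lactate or imported into mitochondria, where the pyruvate dehydrogenase (PDH) complex turns it into acetyl-CoA. The PDH complex is switched off by its kinases and on by its phosphatases. The healthy adult heart draws most of its energy from fatty acids, and a shift towards glucose is a known feature of the hypertrophied heart. Glycogen is the local glucose store, and the pentose phosphate branch supplies NADPH.

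The libraries held 6990445 to 7704812 reads, and mitochondrial genes gave 41.9 to 47.9% of the values in CIP-OE-TAC hearts, 33.9 to 43.0% in Ctrl-TAC hearts, 45.3 to 54.0% in CIP-OE-Sham hearts and 44.6 to 47.0% in Ctrl-Sham hearts. This share was lower in each Ctrl-TAC than in each Ctrl-Sham heart, and its part in the results was not tested. Mlip was at 5909 to 8232 normalized counts (reads divided by 1 factor per library) in CIP-OE-TAC hearts against 823 to 936 in Ctrl-TAC hearts, and at 1910.5 to 5492 in CIP-OE-Sham hearts against 926 to 1322 in Ctrl-Sham hearts, so each CIP-OE library lay above each Ctrl library. In GC content the 3 Ctrl-TAC libraries differed from the remaining 9. Between genes over 55% GC and genes under 45% GC, their median deviations differed by 0.58 to 0.89 on the log2 scale, against -0.54 to 0.02 in those 9. Every comparison with Ctrl-TAC hearts carries this shift, and its part in the results was not tested beyond the correction given below. Cardiomyocyte markers (7 genes) summed to 216092 to 255021 normalized counts in CIP-OE-TAC hearts, 210216 to 262745 in Ctrl-TAC hearts, 242719 to 296404 in CIP-OE-Sham hearts and 241863 to 274354 in Ctrl-Sham hearts. In Ctrl-TAC relative to Ctrl-Sham hearts, 2 of these 7 markers fell, while 5 of 6 endothelial and 3 of 6 fibroblast markers rose, and 3 of the 6 endothelial markers fell in CIP-OE-TAC relative to Ctrl-TAC hearts. Of 5 red blood cell markers 2 rose in Ctrl-TAC relative to Ctrl-Sham hearts, and their sum was 784 to 1571 normalized counts in CIP-OE-TAC hearts, 1303 to 2511 in Ctrl-TAC hearts, 323 to 1583 in CIP-OE-Sham hearts and 562 to 784 in Ctrl-Sham hearts. Both directions were seen in that comparison among the 5 markers of smooth muscle and pericytes (2 higher, 2 lower) and the 6 of macrophages (1 higher, 1 lower). In CIP-OE-TAC relative to Ctrl-TAC hearts 1 macrophage marker rose, and 1 fibroblast and 1 smooth muscle and pericyte marker fell. The part of these markers in the results was not tested. Skeletal muscle markers (6 genes, at most 27.8 normalized counts in sum) were near 0. Fat cell markers (5 genes) were too low to be tested and summed to 0.92 to 117.5 normalized counts in Ctrl-TAC hearts. Their sums were at most 13.1 in CIP-OE-TAC hearts, 6.16 in CIP-OE-Sham hearts and 10.6 in Ctrl-Sham hearts, and their part in the results was not tested. In whole hearts, fewer cells of a type and less RNA per cell cannot be told apart.

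Between the 2 TAC groups, 4 genes of the PDH complex were higher in CIP-OE-TAC than in Ctrl-TAC hearts. There, 6 genes of glycolysis, lactate dehydrogenase and pyruvate import were lower. The 4 were Pdha1, Pdhb, Dlat and Dld. The 6 were Gpi1, Gapdh, Pgam2, Eno1, Ldhb and Mpc1. In limma, with p-values adjusted over all genes tested, 4 of the 37 tested genes rose and 6 fell at an adjusted p under 0.05, where 9.11% of all tested entries rose and 9.27% fell. The median log2 fold change was -0.07 over the 37 genes and 0.01 over all entries. These differences are on the log2(value + 1) scale, which understates the change of low genes. With each library scaled to the sum of its genes other than mitochondrial ones and the top 20, 7 of the 37 rose and 4 fell, and 1605 of all entries then rose and 1057 fell (60.3% of calls higher), where 1220 rose and 1242 fell before. When each library was corrected for GC content by taking out a smooth trend of its log2 deviations on the GC content of the transcripts, 2 of the 10 calls were kept (Pdha1 and Mpc1), and Hk2 (0.47), Tpi1 (0.42) and Ugp2 (-0.47) passed as well.

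In Ctrl-TAC relative to Ctrl-Sham hearts, all 5 tested subunits of the PDH complex fell, and genes of the upper and lower glycolytic steps moved both ways. Of the 37 tested genes, 10 rose (Hk1, Gpi1, Pfkl, Pfkp, Aldoa, Gapdh, Pgam2, Mpc1, Pdk2 and Ugp2) and 11 fell (Hk2, Pfkfb1, Pgk1, Eno3, Pdha1, Pdhb, Dlat, Dld, Pdhx, Gbe1 and Phka1). Over all tested entries, 20.7% rose and 20.2% fell in limma at an adjusted p under 0.05. The median log2 fold change was -0.05 over the 37 genes and 0.00 over all entries. After the GC correction, 12 of the 21 calls were kept, 9 were lost and 7 others passed. This comparison and the previous one share the Ctrl-TAC libraries.

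**Figure D1:**
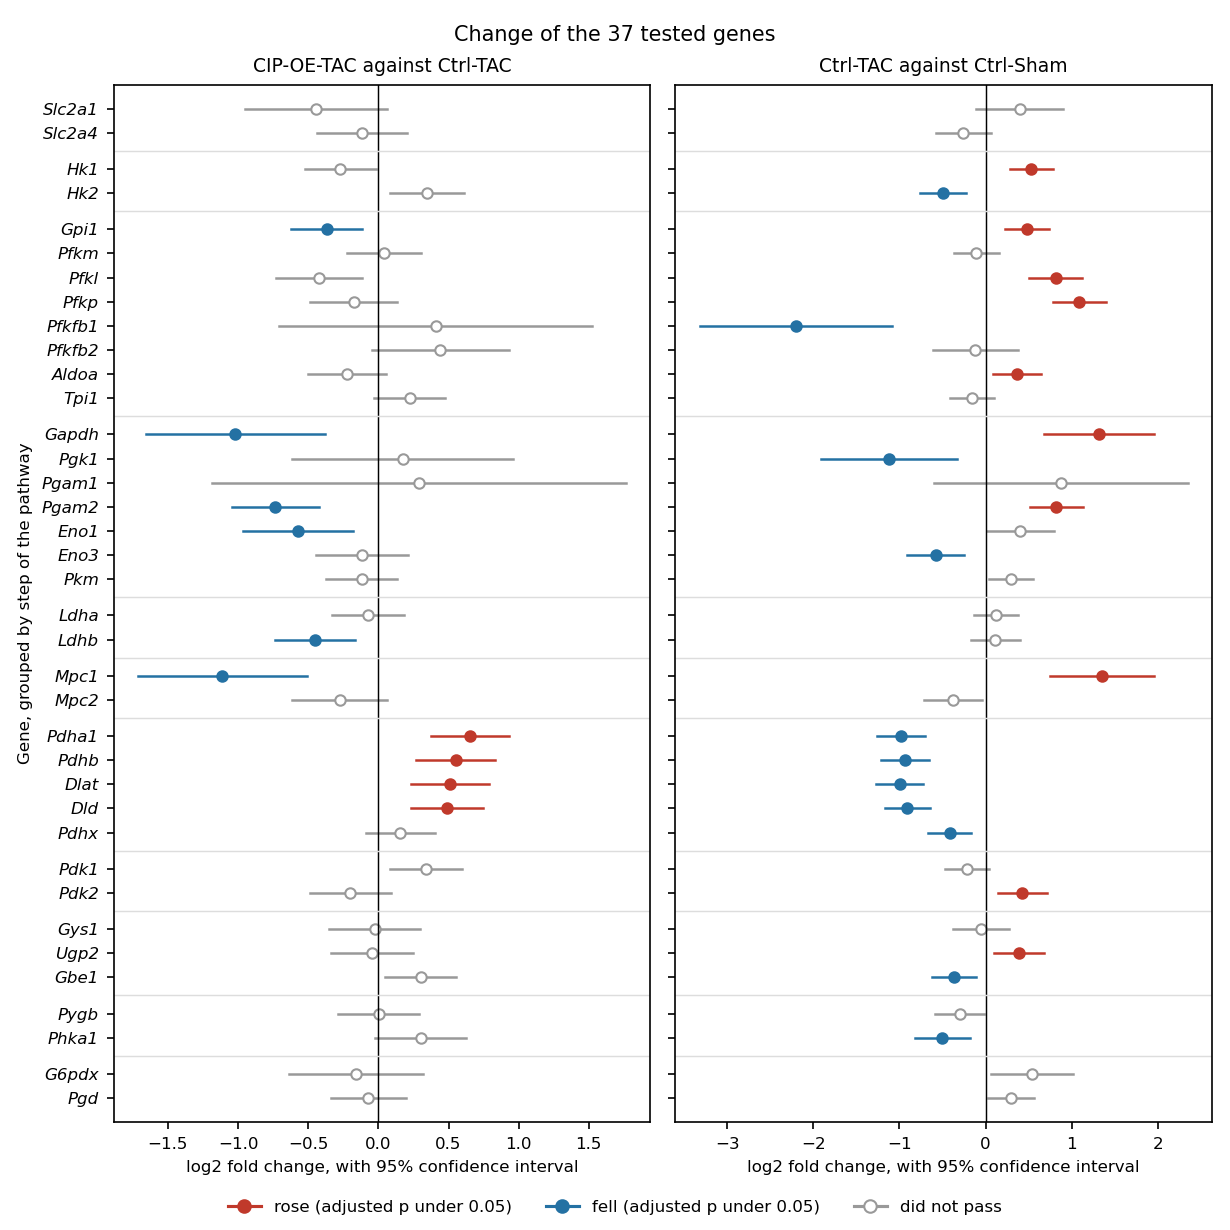
Log2 fold change of the 37 tested genes in CIP-OE-TAC relative to Ctrl-TAC hearts (left) and Ctrl-TAC relative to Ctrl-Sham hearts (right), 3 hearts per group, with 95% confidence intervals from limma; filled red points rose, filled blue points fell and open points did not pass. The 2 panels have their own axes and share the Ctrl-TAC libraries, and the PDH subunits lie right of 0 on the left (0.16 to 0.65) and left of 0 on the right (-0.999 to -0.41).

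The groups without Ctrl-TAC libraries differed in fewer genes. In CIP-OE-Sham relative to Ctrl-Sham hearts, 0 of the 37 genes passed in limma, where 0.0149% of all tested entries rose and 0.00747% fell. At an unadjusted p under 0.05 there were 7 (2 higher and 5 lower), edgeR called 0, and DESeq2 called 1, Pgk1, which was lower. Of all entries, edgeR called 2 higher and 1 lower and DESeq2 39 and 27, and those at an unadjusted p were not counted. With TAC in CIP-OE hearts (CIP-OE-TAC relative to CIP-OE-Sham), Pfkp and Ugp2 rose and 0 genes fell, where 0.754% of all entries rose and 0.508% fell. At an unadjusted p under 0.05 there were 6 lower genes in limma, edgeR called 0 of them and DESeq2 called 1, Eno3. Of all entries, edgeR called 70 lower here and DESeq2 149, and those at an unadjusted p were not counted. When CIP-OE-TAC hearts were set against Ctrl-Sham hearts, Pfkp rose and Eno3, Mpc2 and Dlat fell, where 3.23% of all entries rose and 2.39% fell. The change with TAC differed between genotypes for 6 genes. The difference was positive for Pdha1, Pdhb, Dlat and Dld and negative for Pfkl and Pgam2, where 5.43% of all entries had a positive and 6.18% a negative difference past the test (727 and 828 entries). With the scaling to the sum without mitochondrial and top 20 genes these were 1040 and 665 entries, and 5 and 2 genes of the list. After the GC correction 0 of these 6 differences passed. Then 48 of all entries had a positive and 68 a negative difference past the test (0.362% and 0.513% of 13259). Over the 5 comparisons and the difference between genotypes, 24 of the 37 genes passed at least 1 test, and 13 passed none (Slc2a1, Slc2a4, Pfkm, Pfkfb2, Tpi1, Pgam1, Pkm, Ldha, Pdk1, Gys1, Pygb, G6pdx and Pgd). The share of all entries past at least 1 test was not counted. In Ctrl-TAC relative to Ctrl-Sham hearts alone, 20.7% of all entries rose and 20.2% fell.

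The glucose transporter genes of the list, Slc2a1 and Slc2a4, passed in no comparison. Slc2a4 encodes GLUT4, the insulin-regulated transporter of muscle and fat, and Slc2a1 encodes GLUT1, which does not depend on insulin. Slc2a1 was at 74.1 to 140 normalized counts in CIP-OE-TAC hearts, 115 to 201 in Ctrl-TAC hearts, 101 to 165 in CIP-OE-Sham hearts and 101 to 119.8 in Ctrl-Sham hearts, and all groups overlapped. Slc2a4 was at 2018, 1808 and 1558 normalized counts in CIP-OE-TAC hearts, 1911, 1579.6 and 2413 in Ctrl-TAC hearts, 2149, 2313 and 2857 in CIP-OE-Sham hearts and 2106, 2457 and 2403 in Ctrl-Sham hearts. The CIP-OE-TAC values all lay below those of both Sham groups, and the limma differences did not pass (against CIP-OE-Sham hearts -0.44 ± 0.15 (SE), adjusted p = 0.191, and against Ctrl-Sham hearts -0.38 ± 0.15, adjusted p = 0.164). Slc2a4 passed in Ctrl-TAC relative to Ctrl-Sham hearts only with the GC correction (-0.63, adjusted p = 0.00437 against -0.26 and 0.190 without it). Per kilobase of its longest transcript, Slc2a4 averaged 667 and Slc2a1 38.8 normalized counts over the 12 hearts. Tbc1d4 encodes AS160, the Rab GTPase-activating protein that holds GLUT4 vesicles back. It fell in Ctrl-TAC relative to Ctrl-Sham hearts (-0.69, adjusted p = 4.1e-04) and in CIP-OE-TAC relative to CIP-OE-Sham hearts (-0.63, adjusted p = 0.0228), and rose in CIP-OE-TAC relative to Ctrl-TAC hearts (0.47, adjusted p = 0.0198). The second of these calls ended without the first CIP-OE-Sham heart (0.118) or the second (0.0839) or the first CIP-OE-TAC heart (0.126) or the third (0.122), and the third without the second CIP-OE-TAC heart (0.110).

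The hexokinase genes moved in opposite directions with TAC in Ctrl hearts. Hk1, the broadly expressed isoform, was at 1136, 1077 and 1131 normalized counts in CIP-OE-TAC hearts, 1332, 1341 and 1360.0 in Ctrl-TAC hearts, 929, 983 and 1207 in CIP-OE-Sham hearts and 897, 994 and 901 in Ctrl-Sham hearts. Hk2, the isoform of insulin-sensitive muscle, was at 1543, 1267 and 1408 in CIP-OE-TAC hearts, 1005, 1022 and 1304 in Ctrl-TAC hearts, 1639, 1768 and 1574 in CIP-OE-Sham hearts and 1574, 1503 and 1579.6 in Ctrl-Sham hearts. With TAC, in Ctrl hearts, Hk1 rose (0.53 ± 0.12, SE, adjusted p = 0.00172) and Hk2 fell (-0.49 ± 0.13, adjusted p = 0.00447) in limma, and neither group pair overlapped. After the GC correction Hk1 no longer passed (0.01, adjusted p = 0.966), while Hk2 did (-0.67, adjusted p = 8.4e-04). The log2 ratio of Hk1 to Hk2 normalized counts, not adjusted for length, averaged -0.33 ± 0.10 (SD, n = 3) in CIP-OE-TAC hearts, 0.29 ± 0.20 in Ctrl-TAC hearts, -0.68 ± 0.26 in CIP-OE-Sham hearts and -0.74 ± 0.12 in Ctrl-Sham hearts, and was above 0 in the 3 Ctrl-TAC hearts alone.

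**Figure D2:**
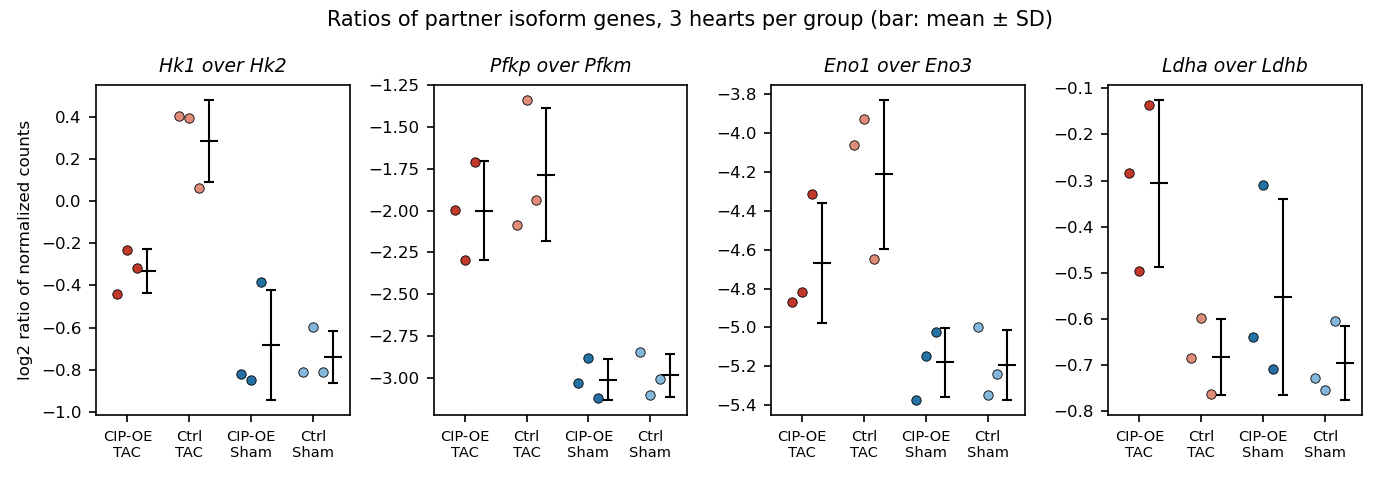
Log2 ratio of the normalized counts of 4 pairs of partner genes in each of the 12 hearts (points), with the mean and SD of each group of 3; each panel has its own axis, which does not start at 0. Hk1 over Hk2 averaged 0.29 in Ctrl-TAC hearts and -0.74 in Ctrl-Sham hearts, and Pfkp over Pfkm averaged -1.9999 and -1.79 in the TAC groups and -3.01 and -2.98 in the Sham groups.

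Phosphofructokinase catalyses the committed step of glycolysis, and its platelet isoform Pfkp was the gene of the list that passed in every comparison of a TAC with a Sham group. Pfkp (chr13:6579768-6648777, minus strand, GRCm38) was at 765, 559 and 852 normalized counts in CIP-OE-TAC hearts, 692, 918 and 826 in Ctrl-TAC hearts, 419, 464 and 415 in CIP-OE-Sham hearts and 397, 350.1 and 389 in Ctrl-Sham hearts. Each TAC heart thus lay above each Sham heart. Pfkp rose 2.13-fold in Ctrl-TAC relative to Ctrl-Sham hearts (1.09 ± 0.15, SE, adjusted p = 1.8e-05), 1.65-fold in CIP-OE-TAC relative to CIP-OE-Sham hearts (0.72 ± 0.15, adjusted p = 0.0202) and 1.89-fold in CIP-OE-TAC relative to Ctrl-Sham hearts (0.92 ± 0.15, adjusted p = 0.00185). Its calls did not end with the GC correction (1.203 in Ctrl-TAC relative to Ctrl-Sham hearts and 0.95 in CIP-OE-TAC relative to Ctrl-Sham hearts). The call in CIP-OE-TAC relative to CIP-OE-Sham hearts ended without the first CIP-OE-Sham heart (adjusted p = 0.0857), the third (0.0765) or the first CIP-OE-TAC heart (0.108) or the third (0.137). Between CIP-OE-TAC and Ctrl-TAC hearts the difference was -0.17, with a 95% interval of -0.49 to 0.14. The muscle isoform Pfkm was at 2320.3 to 3619.6 normalized counts over the 12 hearts and passed in no comparison, but with the GC correction Pfkm passed in Ctrl-TAC relative to Ctrl-Sham hearts (-0.49, adjusted p = 0.00576). The log2 ratio of Pfkp to Pfkm averaged -1.9999 ± 0.29 (SD) in CIP-OE-TAC hearts, -1.79 ± 0.40 in Ctrl-TAC hearts, -3.01 ± 0.12 in CIP-OE-Sham hearts and -2.98 ± 0.13 in Ctrl-Sham hearts. Pfkp overlaps Pitrm1 on the other strand by 748 bases, counted here and below over whole genes with their introns. Pitrm1 fell in Ctrl-TAC relative to Ctrl-Sham hearts (-0.35, adjusted p = 0.0384), and reads of the overlap may be shared, since no source used here gives the strand setting of the counting.

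The liver isoform Pfkl differed between genotypes in its change with TAC. Pfkl was at 491, 448 and 518 normalized counts in CIP-OE-TAC hearts, 708, 625 and 623 in Ctrl-TAC hearts, 528, 512 and 508 in CIP-OE-Sham hearts and 335, 491 and 306 in Ctrl-Sham hearts. The Ctrl-TAC hearts were the highest of the 4 groups and did not overlap with the rest. Pfkl rose in Ctrl-TAC relative to Ctrl-Sham hearts (0.82 ± 0.15, SE, adjusted p = 2.5e-04), while the value was -0.09 in CIP-OE-TAC relative to CIP-OE-Sham hearts (adjusted p = 0.873), and these changes differed (-0.91 ± 0.21, adjusted p = 0.0109). Against Ctrl-TAC hearts, CIP-OE-TAC hearts were at -0.42 (adjusted p = 0.0503). With the GC correction the rise of Pfkl no longer passed (0.24, adjusted p = 0.217), nor did the difference of the changes (-0.37, adjusted p = 0.392).

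Of the other upper steps, Gpi1 (glucose 6-phosphate isomerase) was at 1724, 1725 and 1864 normalized counts in CIP-OE-TAC hearts, 2634, 2034 and 2227 in Ctrl-TAC hearts, 1734, 1785 and 1989 in CIP-OE-Sham hearts and 1574, 1625 and 1725 in Ctrl-Sham hearts. It fell in CIP-OE-TAC relative to Ctrl-TAC hearts (-0.37, adjusted p = 0.0413) and rose in Ctrl-TAC relative to Ctrl-Sham hearts (0.48, adjusted p = 0.0042). The first of these calls ended without any one of 8 libraries, which were the first Ctrl-TAC heart (-0.27, adjusted p = 0.151), the first CIP-OE-TAC heart (0.108), the second (0.124) and the third (0.0642), the first Ctrl-Sham heart (0.0578), the second (0.0549) and the third (0.0505), and the first CIP-OE-Sham heart (0.0505). Both calls of Gpi1 ended with the GC correction (-0.23 and adjusted p = 0.295, 0.28 and 0.0814). Pfkfb1, an isoform of the enzyme that makes and degrades fructose 2,6-bisphosphate, the activator of phosphofructokinase, was at 39.3, 23.4 and 64.8 in CIP-OE-TAC hearts, 51.7, 12.2 and 39.1 in Ctrl-TAC hearts, 105, 105 and 133 in CIP-OE-Sham hearts and 196, 128 and 106 in Ctrl-Sham hearts. Each TAC heart was below each Sham heart, and Pfkfb1 fell in Ctrl-TAC relative to Ctrl-Sham hearts (-2.20 ± 0.50, SE, adjusted p = 0.00555), while -1.80 in CIP-OE-TAC relative to Ctrl-Sham hearts did not pass (adjusted p = 0.0668). Aldoa, the muscle aldolase, had the highest level per kilobase of the list (6233 normalized counts per kilobase over the 12 hearts). Aldoa was at 10135, 8921 and 9021 normalized counts in CIP-OE-TAC hearts, 12329, 9030.0 and 11662 in Ctrl-TAC hearts, 9333, 9319 and 10620.5 in CIP-OE-Sham hearts and 8257, 9329 and 7900.2 in Ctrl-Sham hearts. It rose in Ctrl-TAC relative to Ctrl-Sham hearts (0.36, adjusted p = 0.0348), although these groups overlapped, and the sign turned with the GC correction (-0.20). The rise of Aldoa also ended without the first Ctrl-Sham heart (adjusted p = 0.104) or the third (0.130) or the first Ctrl-TAC heart (0.113) or the third (0.0722). Tpi1 was at 1380.2 to 1978 normalized counts and Pfkfb2 at 229 to 462, and both passed in no comparison. With the GC correction Tpi1 passed in CIP-OE-TAC relative to Ctrl-TAC hearts (0.42, adjusted p = 0.0418) and, below 0, in Ctrl-TAC relative to Ctrl-Sham hearts (-0.44, adjusted p = 0.00821).

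Pgam2, the muscle phosphoglycerate mutase, had the smallest adjusted p of the glycolytic genes between the TAC groups. Pgam2 (chr11:5801640-5803733, minus strand) was at 1269, 1383 and 1081 normalized counts in CIP-OE-TAC hearts, 2684, 1754 and 1855 in Ctrl-TAC hearts, 1189.6, 1252 and 1434 in CIP-OE-Sham hearts and 1173, 1195 and 1123 in Ctrl-Sham hearts. The Ctrl-TAC hearts lay above all others, and the other 3 groups overlapped. Pgam2 fell in CIP-OE-TAC relative to Ctrl-TAC hearts (-0.73 ± 0.15, SE, adjusted p = 0.00355) and rose in Ctrl-TAC relative to Ctrl-Sham hearts (0.82 ± 0.15, adjusted p = 2.6e-04). Its change with TAC differed between genotypes (-0.88 ± 0.21, adjusted p = 0.0135). All 3 calls ended with the GC correction (-0.33 and adjusted p = 0.179, 0.26 and 0.176, and -0.36 and 0.409, in the same order). Pgam2 transcripts have 56.9% GC, in the range where all genes moved most with the shift of the Ctrl-TAC libraries.

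Eno3, the muscle enolase, was lower after TAC in both genotypes. It was at 1978, 2408 and 1959 normalized counts in CIP-OE-TAC hearts, 2436, 1700.3 and 2876 in Ctrl-TAC hearts, 2948, 3290.0 and 3253 in CIP-OE-Sham hearts and 3330.2, 3768 and 3162 in Ctrl-Sham hearts, so each TAC heart was below each Sham heart. Eno3 fell in Ctrl-TAC relative to Ctrl-Sham hearts (-0.58 ± 0.16, SE, adjusted p = 0.00646) and in CIP-OE-TAC relative to Ctrl-Sham hearts (-0.70 ± 0.16, adjusted p = 0.0135), while -0.59 in CIP-OE-TAC relative to CIP-OE-Sham hearts did not pass (adjusted p = 0.0691). With the GC correction the first 2 values were -0.94 and -0.80, and both passed. Without the second Ctrl-TAC heart the first was -0.37 (adjusted p = 0.0503), and the second missed the threshold without the first Ctrl-Sham heart (0.0559) or the second (0.0661) or the first CIP-OE-TAC heart (0.0742) or the third (0.0738). Its partner Eno1, the enolase of most other cells, was at 66.6, 84.4 and 97.7 in CIP-OE-TAC hearts, 145, 111 and 114 in Ctrl-TAC hearts, 70.2, 91.9 and 99.1 in CIP-OE-Sham hearts and 103, 91.6 and 82.7 in Ctrl-Sham hearts. Eno1 fell in CIP-OE-TAC relative to Ctrl-TAC hearts (-0.57, adjusted p = 0.0401), and this call ended with the GC correction (-0.14, adjusted p = 0.739) and without the first Ctrl-TAC heart (0.164) or the first CIP-OE-TAC heart (0.167) or the second (0.0900).

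Some glycolytic genes share much of their sequence with transcripts of other genes, so their values are uncertain. Of the stretches of 50 bases in the longest coding transcript, 82.5% of those of Gapdh were also in transcripts of other genes (222 genes), with 72.2% for Eno1 (9 genes), 68.0% for Pgk1 (5 genes) and 41.5% for Pgam1 (4 genes). These 4 genes were low for glycolytic enzymes, at no more than 216 normalized counts in any heart, and no source used here says how reads with several matches were counted. Other genes called between the TAC groups shared stretches as well. Their shares were 30.3% for Pdhb (1 gene), 27.0% for Ldhb (1 gene), 25.3% for Gpi1 (122 genes) and 16.9% for Pdha1 (2 genes). The genes that share stretches with Gpi1 summed to at most 17810 normalized counts in a heart, against at most 2634 for Gpi1. For Pgam2, Dlat and Dld the share was 0%, and that of Mpc1 is given below. Gapdh, which makes NADH in glycolysis, was at 32.8, 58.1 and 37.6 normalized counts in CIP-OE-TAC hearts, 70.2, 141 and 62.5 in Ctrl-TAC hearts, 36.9, 34.6 and 53.8 in CIP-OE-Sham hearts and 24.8, 36.6 and 41.3 in Ctrl-Sham hearts. Gapdh fell in CIP-OE-TAC relative to Ctrl-TAC hearts (-1.02 ± 0.30, SE, adjusted p = 0.0263) and rose in Ctrl-TAC relative to Ctrl-Sham hearts (1.32 ± 0.30, adjusted p = 0.0021). The fall of Gapdh ended with the GC correction (-0.86, adjusted p = 0.147) and without the second Ctrl-TAC heart (-0.66, adjusted p = 0.139) or the first CIP-OE-TAC heart (0.101) or the third (0.0811). Gapdh overlaps Iffo1, at 63.8 to 169 normalized counts, on the other strand by 68 bases. Iffo1 rose in Ctrl-TAC relative to Ctrl-Sham hearts (0.66, adjusted p = 0.0211) and did not pass between the TAC groups (-0.57, adjusted p = 0.0738). Pgk1, the first ATP-forming enzyme, was at 92.8, 86.3 and 93.0 in CIP-OE-TAC hearts, 126, 39.7 and 103 in Ctrl-TAC hearts, 71.4, 102 and 68.5 in CIP-OE-Sham hearts and 203, 124 and 216 in Ctrl-Sham hearts. Pgk1 fell in Ctrl-TAC relative to Ctrl-Sham hearts (-1.12 ± 0.36, adjusted p = 0.0269), and this ended without the first Ctrl-Sham heart (0.0807) or the third (0.0901). Pgam1 was at 1.23 to 19.5 normalized counts. Pkm, pyruvate kinase, was at 1653 to 2336 and passed in no comparison (34.4% of its stretches were shared), and with the GC correction it passed in Ctrl-TAC relative to Ctrl-Sham hearts (-0.34, adjusted p = 0.0465).

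**Figure D3:**
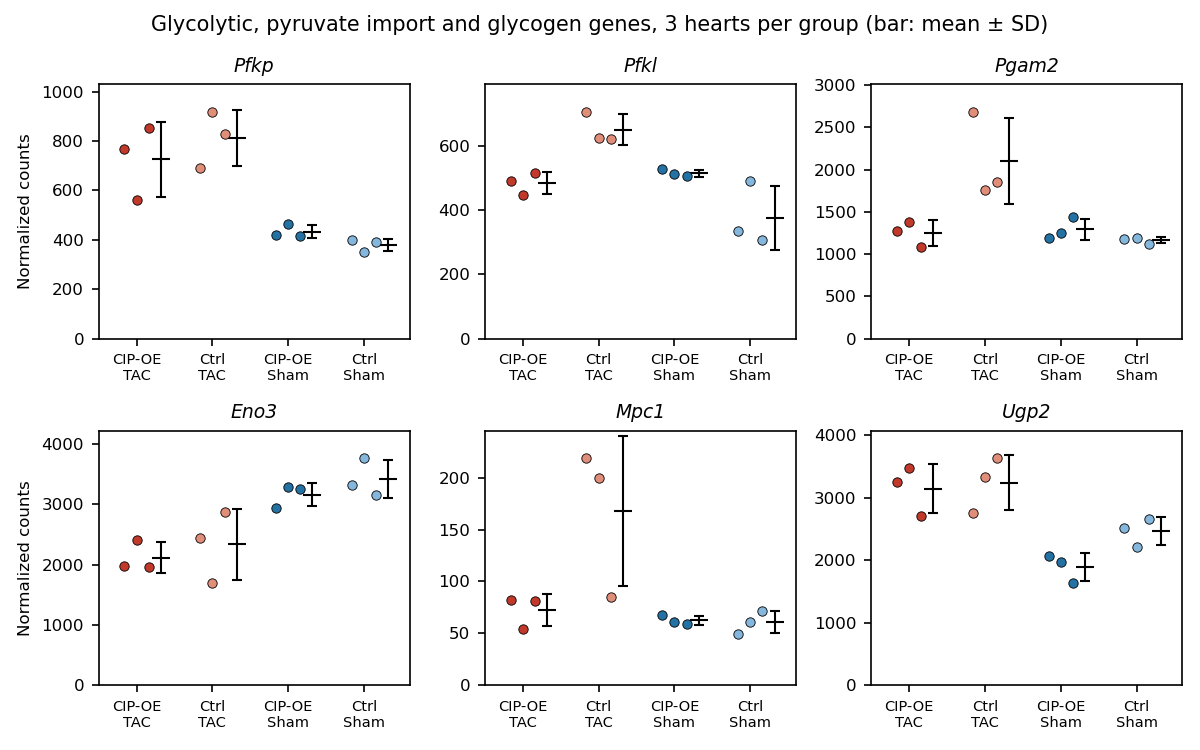
Normalized counts of Pfkp, Pfkl, Pgam2, Eno3, Mpc1 and Ugp2 in each of the 12 hearts (points), with the mean and SD of each group of 3, on axes that start at 0. Pfkp was at 559 to 918 in the 6 TAC hearts and at 350.1 to 464 in the 6 Sham hearts, and Pgam2 was at 1754 to 2684 in Ctrl-TAC hearts and at 1081 to 1434 in the other 9.

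Lactate dehydrogenase converts pyruvate and lactate into each other. Ldhb, the main subunit of the heart enzyme, was at 2294, 2231 and 1913 normalized counts in CIP-OE-TAC hearts, 3353, 2649 and 2815 in Ctrl-TAC hearts, 2772, 2318 and 3184 in CIP-OE-Sham hearts and 2621, 2897 and 2609 in Ctrl-Sham hearts. The CIP-OE-TAC hearts were the lowest of the 4 groups, and Ldhb fell in them against Ctrl-TAC hearts (-0.45 ± 0.14, SE, adjusted p = 0.0273), while -0.34 against Ctrl-Sham hearts did not pass (adjusted p = 0.157). The call ended with the GC correction (-0.27, adjusted p = 0.269) and without the first Ctrl-TAC heart (0.0999) or the second CIP-OE-TAC heart (0.0619) or the third (0.114). Ldha was at 1581 to 2084 normalized counts over the 12 hearts and passed in no comparison. The log2 ratio of Ldha to Ldhb averaged -0.31 ± 0.18 (SD) in CIP-OE-TAC hearts, -0.68 ± 0.08 in Ctrl-TAC hearts, -0.55 ± 0.21 in CIP-OE-Sham hearts and -0.70 ± 0.08 in Ctrl-Sham hearts.

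The 2 subunits of the mitochondrial pyruvate carrier, which form one complex, had unlike patterns. Mpc1 (chr17:8282904-8297661, plus strand) was at 81.9, 54.4 and 80.8 normalized counts in CIP-OE-TAC hearts, 219, 199 and 85.1 in Ctrl-TAC hearts, 67.7, 60.5 and 59.0 in CIP-OE-Sham hearts and 49.6, 61.1 and 71.0 in Ctrl-Sham hearts. The first and the second Ctrl-TAC hearts stood far above the other 10 hearts, and the third just above. Mpc1 fell in CIP-OE-TAC relative to Ctrl-TAC hearts (-1.11 ± 0.28, SE, adjusted p = 0.0141) and rose in Ctrl-TAC relative to Ctrl-Sham hearts (1.36 ± 0.28, adjusted p = 0.00135), and both calls passed with the GC correction (-1.19 and 1.47). The fall of Mpc1 ended without the first Ctrl-TAC heart (-0.86, adjusted p = 0.0640) or the second (-0.93, 0.0522) or the second CIP-OE-TAC heart (-0.92, 0.0724). Of its stretches of 50 bases, 29.6% were in transcripts of 3 other genes, which summed to at most 103 normalized counts in a heart. Mpc1 also overlaps 4930506C21Rik on the other strand by 4296 bases, introns included, while its longest transcript has 961 bases. That gene was at 46.2 to 77.6 normalized counts. It did not pass in CIP-OE-TAC relative to Ctrl-TAC hearts (0.28, adjusted p = 0.337) or in Ctrl-TAC relative to Ctrl-Sham hearts (-0.42, adjusted p = 0.0972). Mpc2 was at 589, 815 and 561 in CIP-OE-TAC hearts, 1037, 680.0 and 678 in Ctrl-TAC hearts, 733, 644 and 745 in CIP-OE-Sham hearts and 1014, 1019 and 1015 in Ctrl-Sham hearts. Mpc2 fell in CIP-OE-TAC relative to Ctrl-Sham hearts (-0.65 ± 0.16, adjusted p = 0.0230), and this call ended with the GC correction (-0.53, 0.0780) and without any one of these: the first Ctrl-Sham heart (0.0799), the second (0.0670) and the third (0.0727) or the first CIP-OE-TAC heart (0.119) and the third (0.130).

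The PDH complex joins glycolysis to the citric acid cycle. Pdha1 and Pdhb encode the alpha and beta chains of its first enzyme, Dlat the acetyltransferase core, Dld the dehydrogenase that regenerates the lipoyl arms, and Pdhx the protein that anchors Dld to the core. Because the first 4 of these genes moved together, their promoter windows (250 bases before to 50 after the start, RefSeq, GRCm38.p6) are shown 5′ to 3′ on the strand of the gene, at chrX:160138381-160138680 for Pdha1, chr14:8172943-8173242 for Pdhb, chr9:50659731-50660030 for Dlat and chr12:31351422-31351721 for Dld, all on the minus strand. Capitals mark matches on either strand to any of these motifs. They are ACGTG, a form of the core of the hypoxia-inducible factor site, and CACGTG, the E box, which holds ACGTG. The others are GCATGC, the core of the NRF1 site, and AAGGTCA, the core of the estrogen-related receptor site. GCGTG, another form of the hypoxia-inducible factor core, was not searched for.
Pdha1: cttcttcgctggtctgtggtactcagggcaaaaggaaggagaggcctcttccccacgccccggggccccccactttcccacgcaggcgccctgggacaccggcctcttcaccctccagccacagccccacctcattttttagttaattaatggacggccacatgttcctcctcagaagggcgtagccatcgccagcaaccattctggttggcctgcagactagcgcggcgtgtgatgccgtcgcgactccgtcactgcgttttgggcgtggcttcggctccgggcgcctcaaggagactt
Pdhb: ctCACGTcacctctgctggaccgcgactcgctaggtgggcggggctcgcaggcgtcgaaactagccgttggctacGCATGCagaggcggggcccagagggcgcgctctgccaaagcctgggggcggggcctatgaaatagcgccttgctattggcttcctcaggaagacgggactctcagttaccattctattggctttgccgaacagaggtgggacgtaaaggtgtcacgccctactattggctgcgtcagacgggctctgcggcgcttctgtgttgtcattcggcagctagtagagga
Dlat: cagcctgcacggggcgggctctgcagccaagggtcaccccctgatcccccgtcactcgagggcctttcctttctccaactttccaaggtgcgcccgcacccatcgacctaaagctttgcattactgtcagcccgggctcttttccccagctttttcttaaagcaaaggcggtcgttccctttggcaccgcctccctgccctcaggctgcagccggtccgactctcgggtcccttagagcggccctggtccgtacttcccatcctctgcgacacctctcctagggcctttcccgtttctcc
Dld: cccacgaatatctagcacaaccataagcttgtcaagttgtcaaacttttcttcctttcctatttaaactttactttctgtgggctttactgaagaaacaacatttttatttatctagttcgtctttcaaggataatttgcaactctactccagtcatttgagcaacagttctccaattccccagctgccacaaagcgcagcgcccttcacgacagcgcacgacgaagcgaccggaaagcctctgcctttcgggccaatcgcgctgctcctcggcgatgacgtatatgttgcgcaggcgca
Only the Pdhb window held a match, with ACGTG (as CACGT on the printed strand, at position -248, counted from 0 at the start) and the NRF1 core (at position -175). The 37 genes of the list with a window include Pygm, which was not tested, and lack Slc2a4, and some have several windows. Over these 37 genes, ACGTG was in 20 of 57 windows (35.1%), against 19.6% of all 32851 windows. Counted by gene, it was in 17 of the 37 (45.9%), against 21.8% of all 27025 genes with a window. ACGTG holds a CG, and the windows were not matched for base composition. The median GC content was 52.7% over all windows, with 62% for Pdha1, 61% for Pdhb, 62% for Dlat and 47% for Dld. The part of base composition in these shares was not tested. The E box was in 4 of the 57 windows (7.15% of all windows), the NRF1 core in 6 (7.93%) and AAGGTCA in 3 (4.72%). A match is a description of the letters and not a bound site.

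All 4 of these subunit genes were lower in Ctrl-TAC hearts than in each other group. Pdha1 was at 5635, 6635 and 5615 normalized counts in CIP-OE-TAC hearts, 3407, 3538 and 4493 in Ctrl-TAC hearts, 7668, 6296 and 6640.3 in CIP-OE-Sham hearts and 7578, 7042 and 7773 in Ctrl-Sham hearts. Pdhb was at 1875, 2397 and 1726 in CIP-OE-TAC hearts, 1429.7, 1246 and 1379.9 in Ctrl-TAC hearts, 2124, 1802 and 2088 in CIP-OE-Sham hearts and 2785, 2351 and 2623 in Ctrl-Sham hearts. The highest Ctrl-TAC value of both genes was below the lowest of the other 9 hearts. Dlat was at 2589, 3172 and 2333 in CIP-OE-TAC hearts, 1689, 1804 and 2172 in Ctrl-TAC hearts, 3374, 3059 and 3176 in CIP-OE-Sham hearts and 3769, 3659.7 and 3835 in Ctrl-Sham hearts. Dld was at 2004, 2466 and 1914 in CIP-OE-TAC hearts, 1455, 1436 and 1632 in Ctrl-TAC hearts, 2451, 2498 and 2343 in CIP-OE-Sham hearts and 3026, 2647 and 2813 in Ctrl-Sham hearts. The same separation held for Dlat and Dld, and in all 4 genes the second CIP-OE-TAC heart was the highest of its group.

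Relative to Ctrl-TAC hearts, in CIP-OE-TAC hearts Pdha1 rose 1.57-fold (0.65 ± 0.13, SE, adjusted p = 0.00355), Pdhb 1.47-fold (0.55 ± 0.13, adjusted p = 0.00949), Dlat 1.42-fold (0.51 ± 0.13, adjusted p = 0.0125) and Dld 1.405-fold (0.49 ± 0.12, adjusted p = 0.0111). The values in Ctrl-TAC relative to Ctrl-Sham hearts were -0.98 ± 0.13 for Pdha1 (adjusted p = 1.7e-05), -0.93 ± 0.13 for Pdhb (3.1e-05), -0.999 ± 0.13 for Dlat (1.3e-05) and -0.91 ± 0.12 for Dld (1.8e-05). With TAC in CIP-OE hearts the values were -0.20 for Pdha1 (95% interval -0.48 to 0.07), -0.01 for Pdhb (-0.30 to 0.27), -0.26 for Dlat (-0.53 to 0.02) and -0.20 for Dld (-0.46 to 0.06). The change with TAC differed between genotypes for all 4 genes, by 0.78 for Pdha1 (adjusted p = 0.0141), 0.92 for Pdhb (0.00631), 0.74 for Dlat (0.0171) and 0.71 for Dld (0.0156). Against Ctrl-Sham hearts, CIP-OE-TAC hearts were at -0.33 for Pdha1, -0.38 for Pdhb, -0.49 for Dlat and -0.42 for Dld, of which Dlat passed (adjusted p = 0.0341). That call ended without the first Ctrl-Sham heart (0.114), the second (0.0798) or the third (0.114) or the first CIP-OE-TAC heart (0.137) or the third (0.195).

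Pdhx was at 781, 877 and 840.1 normalized counts in CIP-OE-TAC hearts, 809, 682 and 752 in Ctrl-TAC hearts, 824, 764 and 869.8 in CIP-OE-Sham hearts and 1057, 1007 and 923 in Ctrl-Sham hearts. The TAC groups overlapped. Pdhx fell in Ctrl-TAC relative to Ctrl-Sham hearts (-0.41 ± 0.12, SE, adjusted p = 0.00909) and was at 0.16 in CIP-OE-TAC relative to Ctrl-TAC hearts (adjusted p = 0.375), where the 95% interval was -0.09 to 0.41.

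**Figure D4:**
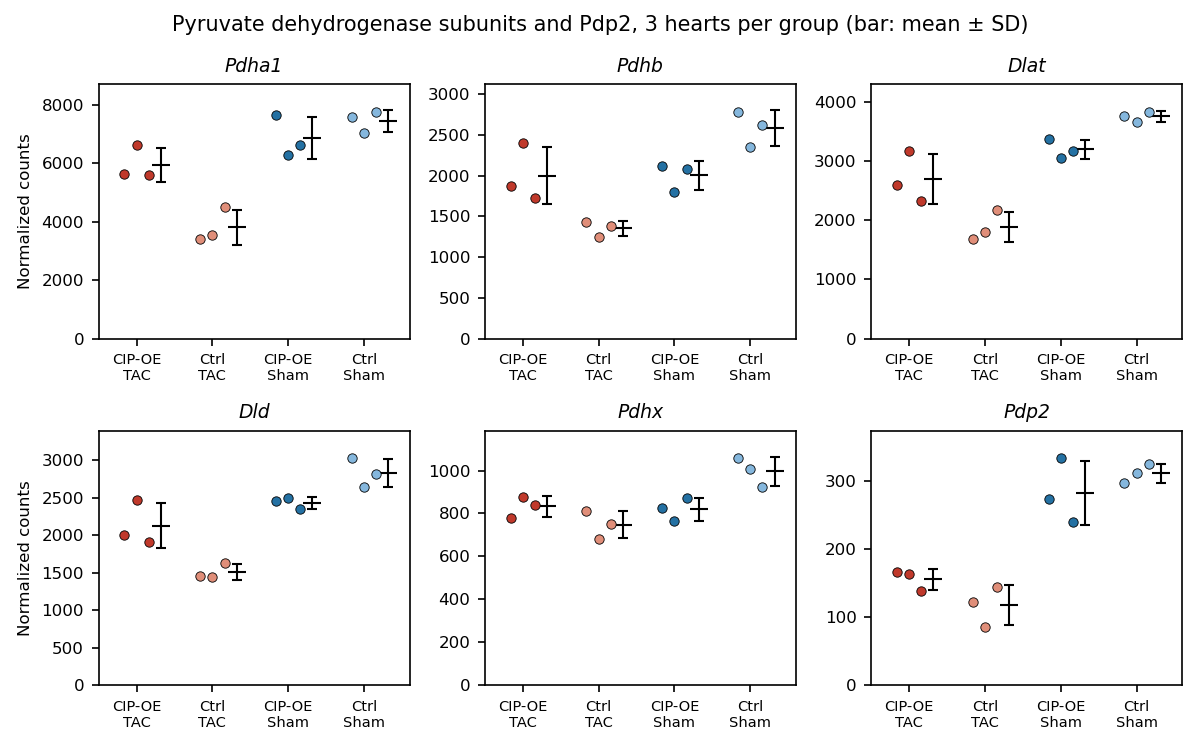
Normalized counts of 5 PDH subunit genes and of the PDH phosphatase gene Pdp2 in each of the 12 hearts (points), with the mean and SD of each group of 3, on axes that start at 0. For Pdha1, Pdhb, Dlat and Dld the 3 Ctrl-TAC hearts lie below the other 9, with Pdha1 at 3407 to 4493 against 5615 to 7773.

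The falls of the PDH subunits in Ctrl-TAC hearts held with the GC correction, at -0.71 for Pdha1 (adjusted p = 5.2e-04), -0.72 for Pdhb (6.6e-04), -0.84 for Dlat (1.5e-04) and -0.38 for Dld (0.0229), and ended for Pdhx (-0.16, 0.365). Between the TAC groups Pdha1 passed with the correction (0.45, adjusted p = 0.0464), and the others did not (Pdhb 0.39 and 0.107, Dlat 0.39 and 0.0963, Dld 0.11 and 0.673). The differences between genotypes were then 0.51 for Pdha1 (adjusted p = 0.212), 0.71 for Pdhb (0.0807), 0.58 for Dlat (0.150) and 0.20 for Dld (0.645). When length was corrected as well as GC, Pdhb passed between the TAC groups (0.43, adjusted p = 0.0488), as did Pdha1 (0.47, 0.0266). Dlat (0.0774) and Dld (0.513) did not. The difference between genotypes then passed for Pdhb (0.71, 0.0445) and not for Pdha1 (0.157), Dlat (0.0995) or Dld (0.593). Without the second CIP-OE-TAC heart the calls of Pdhb (0.41, adjusted p = 0.0684), Dlat (0.39, 0.0864) and Dld (0.38, 0.0774) against Ctrl-TAC hearts ended, and that of Pdha1 did not (0.57, 0.0256). Without the same animal the difference between genotypes missed the threshold for Dlat (0.62, 0.0561) and Dld (0.60, 0.0530), and for Dld also without the first Ctrl-Sham heart (0.66, 0.0524). The 5 subunit genes have 40.6 to 47.2% GC. Pdha1 overlaps Map3k15 on the other strand by 1143 bases. Map3k15, at 1524 to 3627 normalized counts, moved the same way (0.55 in CIP-OE-TAC relative to Ctrl-TAC hearts, adjusted p = 0.00663, and -1.02 in Ctrl-TAC relative to Ctrl-Sham hearts, adjusted p = 6.2e-06). Without strand the reads of that overlap cannot be told apart.

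**Figure D5:**
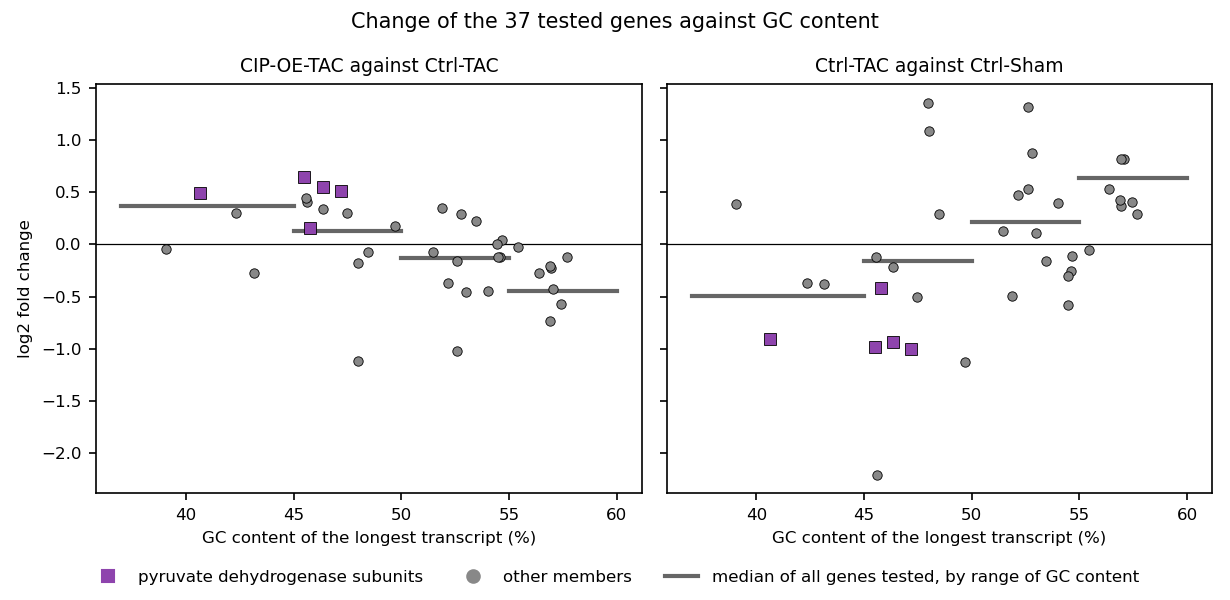
Log2 fold change of the 37 tested genes against the GC content of their longest transcript in CIP-OE-TAC relative to Ctrl-TAC hearts (left) and Ctrl-TAC relative to Ctrl-Sham hearts (right); squares are PDH subunits and bars are medians of all tested genes in 4 ranges of GC content. The medians of all genes run from 0.37 under 45% GC to -0.44 over 55% GC on the left and from -0.49 to 0.64 on the right, and Pdha1, Pdhb, Dlat and Dld lie below the bars of their ranges on the right.

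Over all 13259 tested entries with a GC content, the median log2 fold change in Ctrl-TAC relative to Ctrl-Sham hearts was -0.49 under 45% GC, -0.16 from 45 to 50%, 0.21 from 50 to 55% and 0.64 over 55%. The medians of the genes of the list were -0.37 (4 genes), -0.46 (12), 0.11 (13) and 0.42 (8). Hk1, Pfkl, Pgam2, Aldoa and Pdk2, which rose in this comparison, have 56.4 to 57.1% GC. In CIP-OE-TAC relative to Ctrl-TAC hearts the medians of all entries were 0.37, 0.13, -0.13 and -0.44, and in CIP-OE-TAC relative to CIP-OE-Sham hearts, without Ctrl-TAC libraries, -0.02, 0.00, 0.01 and 0.04.

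The kinases and phosphatases that set the activity of the complex were examined next. Pdk2, a kinase that inactivates PDH, was at 2913, 2439 and 2188 normalized counts in CIP-OE-TAC hearts, 2802, 2591 and 3259 in Ctrl-TAC hearts, 2763, 2451 and 2978 in CIP-OE-Sham hearts and 1875, 2250.2 and 2302 in Ctrl-Sham hearts. It rose in Ctrl-TAC relative to Ctrl-Sham hearts (0.43, adjusted p = 0.0183), but the sign turned with the GC correction (-0.14), and the call ended without the first Ctrl-Sham heart (0.109) or the third Ctrl-TAC heart (0.0642). Pdk1 was at 969.7 to 1576 and passed in no comparison. Pdk3, the PDH kinase with the lowest values here, was at 27.3, 16.9 and 22.6 in CIP-OE-TAC hearts, 27.7, 21.1 and 18.2 in Ctrl-TAC hearts, 13.5, 12.97 and 13.7 in CIP-OE-Sham hearts and 9.93, 10.2 and 15.9 in Ctrl-Sham hearts, so each TAC heart was above each Sham heart. It rose in Ctrl-TAC relative to Ctrl-Sham hearts (0.85, adjusted p = 0.0411), also with the GC correction (0.99, adjusted p = 0.0340), but not without the first Ctrl-Sham heart (0.118) or the second (0.106), the first Ctrl-TAC heart (0.155) or the second (0.0734) or the third CIP-OE-TAC heart (0.0502). Pdk4, the kinase induced by fasting and fatty acids, was at 1838, 1766 and 2651 in CIP-OE-TAC hearts, 2863, 1344 and 8462 in Ctrl-TAC hearts, 6396, 4311 and 839 in CIP-OE-Sham hearts and 1041, 1223 and 1237 in Ctrl-Sham hearts. Pdk4 thus spread widely within the Ctrl-TAC and CIP-OE-Sham groups and passed in no comparison. Among the phosphatase genes, Pdp2 passed with TAC in both genotypes. Pdp2 was at 166, 163 and 138 in CIP-OE-TAC hearts, 122, 85.9 and 144 in Ctrl-TAC hearts, 275, 334 and 240.4 in CIP-OE-Sham hearts and 298, 312 and 325 in Ctrl-Sham hearts, so each TAC heart was below each Sham heart. Pdp2 fell in Ctrl-TAC relative to Ctrl-Sham hearts (-1.43 ± 0.17, SE, adjusted p = 4.5e-06), in CIP-OE-TAC relative to CIP-OE-Sham hearts (-0.85 ± 0.17, adjusted p = 0.0169) and in CIP-OE-TAC relative to Ctrl-Sham hearts (-1.001 ± 0.17, adjusted p = 0.00209). The call of Pdp2 in CIP-OE-TAC relative to CIP-OE-Sham hearts ended without the first CIP-OE-Sham heart (0.0607) or the second (0.0817) or the first CIP-OE-TAC heart (0.0562) or the third (0.103). Pdp1 fell in Ctrl-TAC (-1.21, adjusted p = 7.2e-05) and CIP-OE-TAC hearts (-0.83, adjusted p = 0.0135) against Ctrl-Sham hearts, and the second of these ended without the third Ctrl-Sham heart (0.0717) or the first CIP-OE-TAC heart (0.0599) or the third (0.0680). Pdpr, the regulatory subunit of the phosphatase, fell in Ctrl-TAC relative to Ctrl-Sham hearts (-0.997, adjusted p = 0.00185). In CIP-OE-TAC relative to CIP-OE-Sham hearts the differences were -0.54 for Pdp1 (adjusted p = 0.183) and -0.14 for Pdpr (adjusted p = 0.861), and neither passed. Pdpr rose in CIP-OE-TAC relative to Ctrl-TAC hearts (0.68, adjusted p = 0.0386), but not with the GC correction (0.61, adjusted p = 0.147), nor without the first Ctrl-TAC heart (0.33, 0.102), the first CIP-OE-TAC heart (0.0691), the second (0.143) or the third (0.0672), the second Ctrl-Sham heart (0.0507) or the third (0.0514) or the second CIP-OE-Sham heart (0.0502) or the third (0.0510).

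Of the 5 tested glycogen genes, Ugp2 rose in 2 comparisons, Gbe1 and Phka1 fell in 1, and Gys1 and Pygb passed in none. Ugp2, which makes UDP-glucose for glycogen synthesis, was at 3247, 3479.5 and 2707 normalized counts in CIP-OE-TAC hearts, 2761, 3336 and 3633 in Ctrl-TAC hearts, 2059, 1975 and 1631 in CIP-OE-Sham hearts and 2521, 2216 and 2663 in Ctrl-Sham hearts. Each TAC heart was above each Sham heart. Ugp2 overlaps Gm12043 on the other strand by 802 bases, and Gm12043, at 39.7 to 240.4, rose in Ctrl-TAC relative to Ctrl-Sham hearts (1.99, adjusted p = 2.6e-06). In CIP-OE-TAC hearts Gm12043 also rose against CIP-OE-Sham (0.95, adjusted p = 0.0415) and Ctrl-Sham hearts (1.11, 0.00697). Against Ctrl-TAC hearts it fell (-0.89, 0.0112). Ugp2 rose 1.66-fold in CIP-OE-TAC relative to CIP-OE-Sham hearts (0.73 ± 0.14, SE, adjusted p = 0.0130) and 1.31-fold in Ctrl-TAC relative to Ctrl-Sham hearts (0.39 ± 0.14, adjusted p = 0.0320). With the GC correction the second value was 0.97 (adjusted p = 2.9e-05), and CIP-OE-TAC hearts then passed against Ctrl-Sham hearts (0.50, adjusted p = 0.0239) and, below 0, against Ctrl-TAC hearts (-0.47, adjusted p = 0.0351). The first call ended without the third CIP-OE-Sham heart (0.0748) or the first CIP-OE-TAC heart (0.0769), and the second without the first Ctrl-Sham heart (0.0680) or the second (0.131) or the second Ctrl-TAC heart (0.0776) or the third (0.101). Gys1, the muscle glycogen synthase, was at 722 to 1097 over the 12 hearts and passed in no comparison. It passed in Ctrl-TAC relative to Ctrl-Sham hearts only with the GC correction (-0.4988, adjusted p = 0.0266). Gbe1, the branching enzyme, was at 407, 439.7 and 381 in CIP-OE-TAC hearts, 311, 327 and 357 in Ctrl-TAC hearts, 352, 374 and 395 in CIP-OE-Sham hearts and 456, 391 and 439 in Ctrl-Sham hearts. It fell in Ctrl-TAC relative to Ctrl-Sham hearts (-0.37, adjusted p = 0.0199), the sign turned with the GC correction (0.09), and the call ended without the first Ctrl-Sham heart (0.0838) or the third (0.0604) or the first Ctrl-TAC heart (0.0577).

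Pygb, the brain glycogen phosphorylase, was at 2963, 3008 and 3228 normalized counts in CIP-OE-TAC hearts, 2834, 2650.2 and 3818 in Ctrl-TAC hearts, 4171, 3796 and 4121 in CIP-OE-Sham hearts and 3363, 3749 and 4254 in Ctrl-Sham hearts. No difference of Pygb passed, and the largest, -0.39 in CIP-OE-TAC relative to CIP-OE-Sham hearts, had an adjusted p of 0.191. It passed in Ctrl-TAC relative to Ctrl-Sham hearts only with the GC correction (-0.67, adjusted p = 0.00213). Phka1, the regulatory subunit of muscle phosphorylase kinase, fell in Ctrl-TAC relative to Ctrl-Sham hearts (-0.50, adjusted p = 0.0147), where the groups overlapped (261, 297 and 395 against 457, 370.5 and 513 normalized counts). This call of Phka1 ended with the GC correction (-0.35, adjusted p = 0.102) and without the first Ctrl-Sham heart (0.0514) or the third (0.0835) or the first Ctrl-TAC heart (0.0742). The muscle phosphorylase Pygm, known as abundant in striated muscle, was listed in 2 identical rows at 0 in all 12 libraries. Of the 231 protein-coding symbols listed in identical rows, 227 (98.3%) were at 0 in every library, against 24.9% of the other 21564 protein-coding symbols. The zeros of Pygm are therefore given as listed, and not as absence of the transcript.

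The pentose phosphate genes of the list, G6pdx and Pgd, were low and passed in no comparison. G6pdx, the entry enzyme, was at 30.8 to 73.0 normalized counts, and Pgd, the next dehydrogenase, at 174, 160.3 and 166 in CIP-OE-TAC hearts, 180.1, 179.9 and 166 in Ctrl-TAC hearts, 164, 169 and 177 in CIP-OE-Sham hearts and 135, 145 and 148 in Ctrl-Sham hearts. Their values in Ctrl-TAC relative to Ctrl-Sham hearts were 0.53 (adjusted p = 0.0663) for G6pdx and 0.30 (adjusted p = 0.0725) for Pgd, which passed with the GC correction (0.38, adjusted p = 0.0335). G6pdx overlaps Ikbkg on the other strand by 19712 bases, which is the whole of G6pdx with its introns. Its longest transcript has 2652 bases, and 10.7% of its stretches of 50 bases were in transcripts of 2 other genes.

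Of 52 further genes of these pathways, chosen like the list with earlier results known, 46 were tested. In CIP-OE-TAC relative to Ctrl-TAC hearts 6 rose and 4 fell, where 9.11% of all tested entries rose and 9.27% fell. In Ctrl-TAC relative to Ctrl-Sham hearts 12 rose and 12 fell, where 20.7% of all entries rose and 20.2% fell. In CIP-OE-Sham relative to Ctrl-Sham hearts 0 passed, in CIP-OE-TAC relative to CIP-OE-Sham hearts 0 rose and 2 fell (0.754% and 0.508% of all entries), and in CIP-OE-TAC relative to Ctrl-Sham hearts 1 rose and 3 fell (3.23% and 2.39% of all entries). Slc2a8, an intracellular glucose transporter, was among those that rose in Ctrl-TAC relative to Ctrl-Sham hearts (0.65, adjusted p = 0.0183), but the sign turned with the GC correction (-0.19), and the call ended without the first Ctrl-Sham heart (0.0575) or the second (0.0610) or the first Ctrl-TAC heart (0.0757) or the third (0.0681). Ppp1r3a, which targets protein phosphatase to glycogen in striated muscle, was at 1644, 1977 and 1663 in CIP-OE-TAC hearts, 704, 838 and 1178 in Ctrl-TAC hearts, 1960.5, 2459.7 and 1715 in CIP-OE-Sham hearts and 2625, 2356 and 2433 in Ctrl-Sham hearts. The Ctrl-TAC hearts were below the other 9. Ppp1r3a rose in CIP-OE-TAC relative to Ctrl-TAC hearts (0.99 ± 0.17, SE, adjusted p = 0.00115) and fell in Ctrl-TAC relative to Ctrl-Sham hearts (-1.48 ± 0.17, adjusted p = 3.0e-06), and the first of these ended with the GC correction (0.48, adjusted p = 0.110), while the second was -0.82 with it (adjusted p = 0.0013). Ppp1r3d, another glycogen-targeting subunit, was at 91.7, 88.1 and 78.9 in CIP-OE-TAC hearts and 46.2, 58.4 and 64.2 in Ctrl-TAC hearts and rose (0.62, adjusted p = 0.0308), also with the GC correction (0.79, adjusted p = 0.0315), but not without the first Ctrl-TAC heart (0.130), the first CIP-OE-TAC heart (0.0900) or the second (0.0926).

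The same comparisons gave further calls in glycogen breakdown, the pentose phosphate branch and its regulators. Phkg1, the catalytic subunit of muscle phosphorylase kinase, was at 54.6, 57.2 and 36.7 normalized counts in CIP-OE-TAC hearts, 40.6, 16.2 and 25.2 in Ctrl-TAC hearts, 84.97, 60.5 and 100.2 in CIP-OE-Sham hearts and 123, 91.6 and 129 in Ctrl-Sham hearts. Each TAC heart was below each Sham heart, and Phkg1 fell in Ctrl-TAC (-2.11, adjusted p = 2.3e-05) and CIP-OE-TAC hearts (-1.21, adjusted p = 0.0188) against Ctrl-Sham hearts. The second call ended without the first Ctrl-Sham heart (0.0812) or the third (0.0798) or the first CIP-OE-TAC heart (0.0552) or the third (0.106). Phkg1 rose in CIP-OE-TAC relative to Ctrl-TAC hearts (0.90, adjusted p = 0.0354), but not with the GC correction (0.92, adjusted p = 0.0909), nor without the second Ctrl-TAC heart (0.149) or the third (0.0665) or the first CIP-OE-TAC heart (0.106) or the second (0.133). Mlxipl encodes ChREBP, a glucose-responsive transcription factor. Mlxipl was at 337, 255 and 336 in CIP-OE-TAC hearts, 376, 421 and 517 in Ctrl-TAC hearts, 267, 235 and 237 in CIP-OE-Sham hearts and 159.9, 198 and 206 in Ctrl-Sham hearts, so the Ctrl-TAC hearts were highest and the Ctrl-Sham hearts lowest. It rose in Ctrl-TAC (1.21, adjusted p = 7.2e-06) and CIP-OE-TAC hearts (0.71, adjusted p = 0.00933) against Ctrl-Sham hearts and fell in CIP-OE-TAC relative to Ctrl-TAC hearts (-0.50, adjusted p = 0.0277), where the GC correction ended the call (-0.12, adjusted p = 0.755), as did leaving out the third Ctrl-TAC heart (0.108) or the second CIP-OE-TAC heart (0.156). Mlxipl in CIP-OE-TAC relative to Ctrl-Sham hearts missed the threshold without the first Ctrl-Sham heart (0.0687) or the first CIP-OE-TAC heart (0.0602) or the third (0.0619). Pgls, which opens the lactone of the pentose phosphate branch, fell in CIP-OE-TAC relative to Ctrl-TAC hearts (-1.02, adjusted p = 0.00409) and rose in Ctrl-TAC relative to Ctrl-Sham hearts (0.75, adjusted p = 0.00823). Both calls of Pgls ended with the GC correction (-0.59 and adjusted p = 0.0877, 0.14 and 0.627), and the rise also without the first Ctrl-TAC heart (0.51, 0.0608). Tkt (0.96, adjusted p = 9.2e-04) and Taldo1 (0.81, adjusted p = 5.2e-04), enzymes of the non-oxidative branch, rose in Ctrl-TAC relative to Ctrl-Sham hearts. With the GC correction both passed (0.63, adjusted p = 0.0252, and 0.51, adjusted p = 0.0203). Rpe, another enzyme of this branch, fell in that comparison (-0.57, adjusted p = 0.0186). The call of Rpe ended with the GC correction (0.009, adjusted p = 0.976) and without the third Ctrl-Sham heart (0.125). Gsk3a, a kinase that inactivates glycogen synthase, rose in Ctrl-TAC relative to Ctrl-Sham hearts as well (0.78, adjusted p = 1.7e-04), but with the GC correction the value was 0.00 (adjusted p = 0.986). Gpd1, which links glycolysis to glycerol 3-phosphate, fell in CIP-OE-TAC relative to Ctrl-TAC hearts (-0.64, adjusted p = 0.0118), but not with the GC correction (-0.24, adjusted p = 0.495).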

How the data were processed

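RNA-seq of the hearts of 12 mice was analysed, in 4 groups of 3 taken from the labels. The table holds 1 signal value per gene and library, which the authors deposited after dividing read counts by a library factor. As aligner and counter, the study's methods give STAR and featureCounts (mm10), whereas HISAT2 2.0.4 and StringTie 2.1.4 (GRCm38) stand in the processing notes of the submitters. DESeq2 is in both, with version 1.4.5 in the notes. Of 54515 rows, 633 repeated another row exactly and were dropped. All values (100%, tolerance 0.001) were whole multiples of a step per library, which gave back the reads (6990445 to 7704812 per library, 1 read being worth 0.810 to 1.23). Libraries of a group differed beyond counting noise (chi-square per degree of freedom 3.77 to 23.1).

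Log2(value + 1) was tested with limma 3.58.1 (trend and robust, R 4.3.3), all libraries in 1 fit with group means, on 13392 entries that reached 10 normalized counts in 3 or more libraries. Adjusted p-values are Benjamini-Hochberg values over these entries, and a call is an adjusted p under 0.05. On the recovered reads, edgeR 4.0.16 called 4 genes of the list higher and 7 lower in CIP-OE-TAC relative to Ctrl-TAC hearts and 10 and 11 in Ctrl-TAC relative to Ctrl-Sham hearts, and DESeq2 1.42.0 called 5 and 7, and 11 and 11. Positions, lengths and GC content came from GENCODE M21 and promoters from RefSeq. The GC correction removed a loess trend on GC content from the deviations of each library.

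The genes, further pathway genes, markers and the motifs ACGTG and CACGTG were chosen with earlier results of these data known, and the other motifs later still. Every gene of the list was to be accounted for, with values per heart for those past the test with a fold change over 1.5 or a difference between genotypes and for the highest of each role. Of the further genes, those past the test with a fold change over 1.5 were to be named, at most the 8 with the smallest p per comparison. Pdk3, Pdk4, Slc2a8, Rpe and values of Tbc1d4, Pdpr, Pgls and Tkt outside this rule were chosen after they were seen. Some further genes are not reported here. Alternatives were other pseudocounts, filters, scalings and tools, corrections for GC and length, a fold threshold and leaving out each library. No per-sample column was left unused (0).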

Additional observations from a re-analysis of the deposited data

Results flagged for a closer look

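The change with TAC in CIP-OE hearts differed from that in Ctrl hearts, by the test of the difference itself in limma (log2 scale, CIP-OE minus Ctrl), for 6 of the 37 tested genes of the list and 6 of the 46 tested further genes, where 5.43% of all tested entries had a positive and 6.18% a negative difference past the test. The difference was 0.78 for Pdha1, 0.92 for Pdhb, 0.74 for Dlat, 0.71 for Dld, -0.91 for Pfkl and -0.88 for Pgam2 (adjusted p = 0.00631 to 0.0171). Among the further pathway genes it was 1.39 for Phkg1, 1.27 for Ppp1r3a, -0.76 for Gsk3a, a kinase of glycogen synthase, -1.08 for Tkt, -0.71 for Taldo1 and -0.89 for Mlxipl (adjusted p = 0.00364 to 0.0476). With the GC correction 0 of these 12 differences passed, where 0.362% of all entries had a positive and 0.513% a negative one past the test. Leaving out 1 library ended the call for Dlat (the second CIP-OE-TAC heart, adjusted p = 0.0561) and Dld (the same heart, 0.0530, or the first Ctrl-Sham heart, 0.0524), Gsk3a (the third Ctrl-Sham heart, 0.0511, or the second CIP-OE-TAC heart, 0.0530), Tkt (the first Ctrl-Sham heart, 0.0540, the third CIP-OE-Sham heart, 0.0620, or the second CIP-OE-TAC heart, 0.0627), Phkg1 (any one of 7 libraries, up to 0.0865) and Taldo1 (any one of 8 libraries, up to 0.129).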

How the results depend on the processing

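No paired analysis was possible, because each animal is in 1 group and the labels do not give litters. The part of litter in the results could not be tested. Of the genes of the list, the 4 that rose in CIP-OE-TAC relative to Ctrl-TAC hearts became 7 with the scaling to totals without mitochondrial and top 20 genes and 1 with a fold change over 1.5 as well. The 6 that fell became 2 without the limma trend, 1 in a fit of the compared groups only, 2 with the GC correction, 2 with the GC and length correction and 3 with the fold threshold. In Ctrl-TAC relative to Ctrl-Sham hearts, the 10 that rose became 5 with the GC correction, 6 with the GC and length correction and 5 with the fold threshold, and the 11 that fell became 6 with the fold threshold. In CIP-OE-Sham relative to Ctrl-Sham hearts, 2 fell in the fit of the compared groups and 1 by DESeq2. Between CIP-OE-TAC and CIP-OE-Sham hearts, 0 rose without the trend, and 1 fell without the filter, 1 with the spread weighted by group, 2 in the fit of the compared groups and 1 by DESeq2. Between CIP-OE-TAC and Ctrl-Sham hearts, 2 rose with either correction, and 5 fell with a filter at 50, 0 without the trend, 5 with the weighted spread, 9 in the fit of the compared groups and 6 by DESeq2. The difference between genotypes passed for 1 gene without the trend, 11 by DESeq2, 0 with the GC correction and 1 (Pdhb) with the GC and length correction. The cause of these changes was not tested.

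With the GC correction and with the GC and length correction, Aldoa (-0.20 and -0.19), Pdk2 (-0.14 and -0.12) and Gbe1 (0.087 and 0.078) changed sign in Ctrl-TAC relative to Ctrl-Sham hearts. Over all entries, the GC correction left 205 higher and 248 lower in CIP-OE-TAC relative to Ctrl-TAC hearts and 1325 and 1425 in Ctrl-TAC relative to Ctrl-Sham hearts. Without the trend the first of these comparisons had 747 and 865.

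When each library was left out in turn, the number of genes of the list that rose was 1 to 7 and that fell 2 to 6 in CIP-OE-TAC relative to Ctrl-TAC hearts. The lowest and highest first number came without the second CIP-OE-TAC and the third Ctrl-TAC heart, and the second number was 2 without the first Ctrl-TAC or the second CIP-OE-TAC heart and 3 without the first or the third CIP-OE-TAC heart. In Ctrl-TAC relative to Ctrl-Sham hearts 7 to 10 rose and 8 to 13 fell. In CIP-OE-Sham relative to Ctrl-Sham hearts 0 rose and 0 to 1 fell (1 without the second Ctrl-TAC heart). Between CIP-OE-TAC and CIP-OE-Sham hearts 0 to 2 rose (0 without the third CIP-OE-Sham or the first CIP-OE-TAC heart, 1 without the first CIP-OE-Sham or the third CIP-OE-TAC heart) and 0 to 2 fell (2 and 1 without the second and the third Ctrl-TAC heart). Between CIP-OE-TAC and Ctrl-Sham hearts 1 to 2 rose (2 without the second Ctrl-Sham heart) and 0 to 5 fell (0 without the first or the second Ctrl-Sham or the first or the third CIP-OE-TAC heart, 1 without the third Ctrl-Sham heart, 5 without the first or the second Ctrl-TAC or the second CIP-OE-TAC heart). The difference between genotypes passed for 5 to 10 genes (10 without the third Ctrl-TAC heart). Of the 43 calls of these genes, 21 passed without each library in turn. With 6990445 to 7704812 reads per library and 3 hearts per group, genes such as Pgam1 and Pfkfb1 are measured imprecisely.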
